A study of Mus musculus with 16 samples.

Results

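The genes described here build N-glycans, the sugar trees that are attached to asparagine residues of secreted and membrane proteins. There were 56 of them among the 20622 genes of the total RNA tables, chosen by symbol for their place in the pathway, with earlier results of these data known. All 56 were also listed in the footprint tables. They were placed in 8 steps, with 8 genes for the dolichol carrier and its sugar donors, 12 for assembly of the lipid-linked oligosaccharide, 6 for trimming and the glucose checkpoint in the endoplasmic reticulum (ER), 5 for Golgi mannose trimming, 6 for branching, 6 for core fucose, galactose and sialic acid addition, 9 for sugar nucleotide synthesis and 4 for sugar nucleotide transport.

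As background, an N-glycan is first assembled sugar by sugar on the lipid dolichol in the ER membrane by the ALG enzymes and is then moved whole to the nascent protein. Glucosidases and mannosidases trim it in the ER, where a glucosyltransferase checks whether the protein has folded. In the Golgi, further mannose residues are removed, N-acetylglucosaminyltransferases of the MGAT family start new branches, and fucose, galactose and sialic acid are added from nucleotide sugars that are made in the cytosol or nucleus and carried into the Golgi by SLC35 transporters. Alveolar type II cells, the cells in which these tumours were started, secrete surfactant proteins that carry such glycans.

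The cells were KM cells, a line made from lung tumours of 1 male mouse with the alleles Rosa26LSL-MYC/LSL-MYC, in which an adenovirus with Cre under the surfactant protein C promoter had switched on human MYC. The KM 4A2cr cells had received a lentiCRISPR vector with a guide to *Eif4a2*, an RNA helicase of translation initiation, and were a pool of 4 clones chosen for the absence of the protein. The KM NTC control cells carried a non-targeting guide, and both lines had been selected with puromycin and were otherwise untreated. Ribosome-protected fragments (RPFs, or footprints) and total cytoplasmic RNA were sequenced from the same lysates in 4 experiments on different days, which gave 4 libraries of each kind for each line and 16 in all. The comparison asks how loss of eIF4A2 changed the ribosomes on each mRNA and the mRNA itself. Both lines share the tumour genotype, and the clonal selection stated for KM 4A2cr cannot be told apart from the loss of *Eif4a2* here.

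Libraries held 4512403 to 9621848 footprint counts and 5350920 to 9312624 total RNA counts, and the 56 genes took 0.593% to 0.959% of the former. *Eif4a2* footprints were 97.7, 122, 99.8 and 389 CPM (each count relative to the total of its library, scaled by the trimmed mean of M-values) in KM NTC replicates 1 to 4 and 51.0, 88.4, 74.8 and 346 in KM 4A2cr. They were lower in each pair and fell by 0.49 on the log2 scale (standard error, SE, 0.15, adjusted p = 0.0941), while *Eif4a2* total RNA differed by -0.18 (adjusted p = 0.504). Replicate 4 stood apart in both lines, with the highest *Eif4a2* level and the smallest difference in footprints between the lines. Results that rest on it are given with and without it below. Of 6 alveolar type II and epithelial markers tested in footprints, *Epcam*, *Cdh1* and *Abca3*, a lipid transporter of alveolar type II cells, rose by 0.51, 0.44 and 0.54 (log2). The keratins *Krt8*, *Krt18* and *Krt19* did not pass, at -0.05, -0.10 and 0.13, and the 7 markers listed summed to between 6860 and 11463 CPM in every library. The surfactant transcripts *Sftpc* and *Sftpb* had 0 counts in the total RNA of all 8 libraries, and *Sftpa1* and *Nkx2-1* had 2 and 3 counts in all. Of 9 fibroblast markers, 2 were listed in footprints and summed to at most 21.4 CPM. The 6 immune markers listed summed to between 75.1 and 779 CPM, mostly from *Cd68* with 11305 of their footprint counts, while *Ptprc* had 77. The 4 endothelial markers summed to at most 17.2 CPM.

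12 genes of the pathway had higher footprints in KM 4A2cr cells and none had lower footprints. Of the 12, 8 act in the Golgi steps of trimming, branching and addition, and the largest changes were those of *Fut8* and *Mgat4b*. Of the 56 genes, 52 had enough footprints to be tested, and *Alg13*, *Uggt2*, *Mgat3* and *B4galt2* did not. Of those 52, 43 lay above 0 with a median log2 fold change of 0.21, 12 rose and 0 fell (adjusted p under 0.1 in edgeR's quasi-likelihood test, blocked by replicate, which is the test behind every adjusted p given here). Over the 10291 genes tested the median was -0.01, 6.6% rose and 3.72% fell. By pair, 15 of the 52 were higher in 4 of 4 pairs, against 14.1% of all genes, and 3 (*Gmppa*, *Gmppb* and *Gne*) were lower in 4 of 4, against 16.0%. In total RNA, of 55 genes tested, 49 lay above 0 with a median of 0.28, 6 rose and 0 fell, where 4.35% of all 10880 genes rose and 1.78% fell. By pair, 12 of the 55 were higher in 4 of 4 pairs, against 12.4% of all genes, and *Dpm2* alone was lower in 4 of 4, against 13.0%. These values are relative to all mRNAs of a library, and a cell with more of every footprint cannot be told apart from one with the same number.

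**Figure D1:**
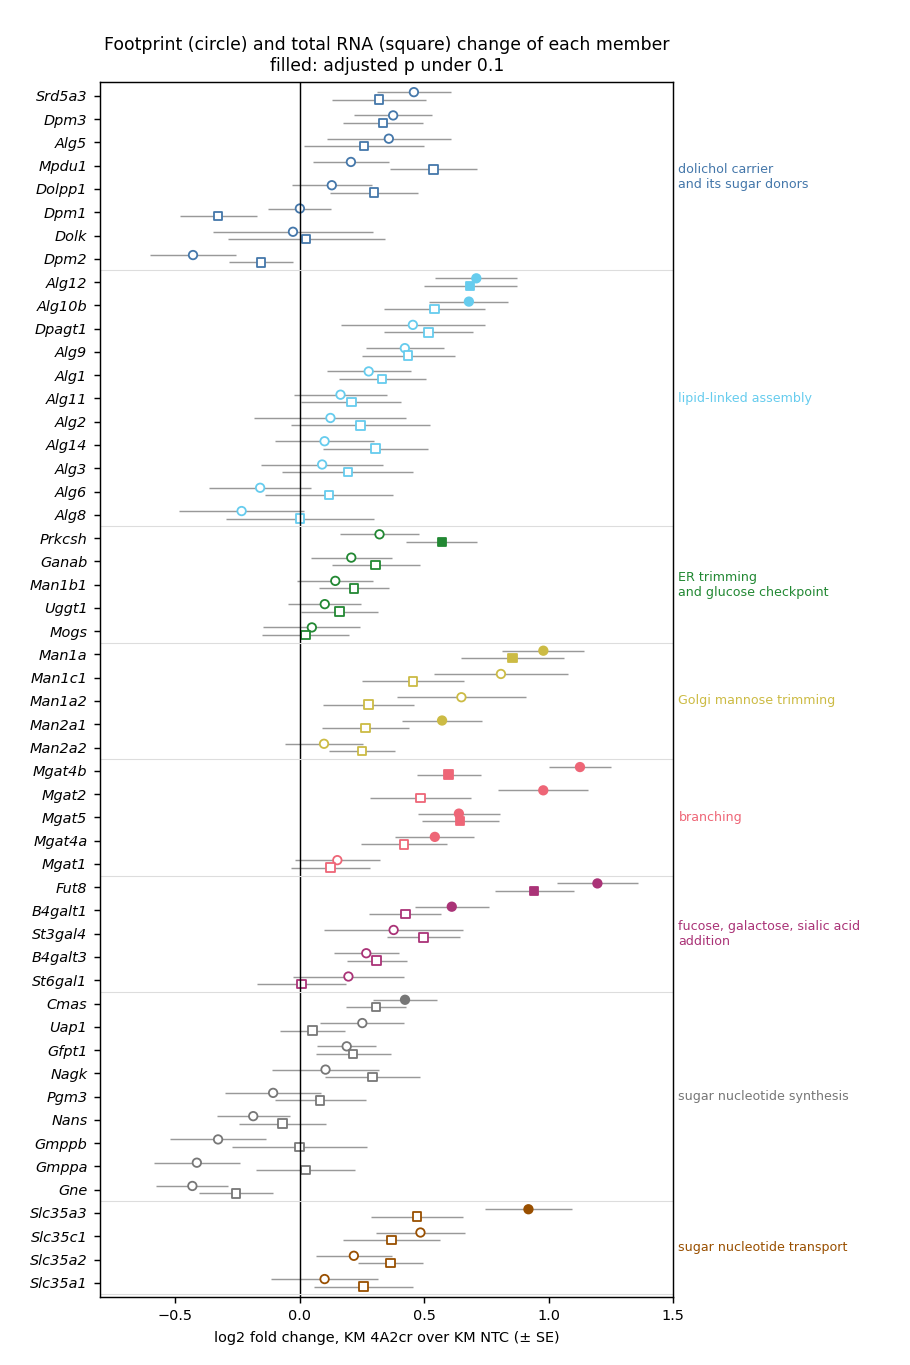
Log2 fold change (KM 4A2cr over KM NTC, ± standard error) of the 52 genes with enough footprints, in footprints (circles) and total RNA (squares), by step. Filled symbols mark adjusted p under 0.1. Filled circles gather in Golgi mannose trimming and branching, where 6 of 10 genes rose, while the 8 dolichol genes have none.

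Replicate 4 went against the other experiments. The median difference of the 52 genes in footprints was 0.59, 0.40, 0.31 and -0.10 on the log2 scale in pairs 1 to 4, with 46, 45, 37 and 21 genes above 0. In total RNA it was 0.54, 0.40, 0.44 and -0.24. Over all genes the pair medians of both kinds lay between -0.06 and 0.02. Without replicate 4, 33 of 53 genes rose in footprints and 2 fell (*Gne* and *Nans*), against 19.1% and 14.3% of all genes in the same fit. In total RNA 39 of 56 then rose and 1 fell (*Nans*), against 17.8% and 12.0%. Without replicate 1, 2 or 3 instead, 3, 2 and 1 genes rose in footprints, and *Mgat4b* was in each of these lists. Over all genes 157 of 10237, 94 of 10280 and 29 of 10338 rose in footprints in those fits. In total RNA 1 (*Fut8*), 0 and 0 genes then passed edgeR's test, with 10, 8 and 7 at an unadjusted p under 0.05. Over all genes 134 of 10857, 102 of 10807 and 50 of 10928 then rose in total RNA. Without replicate 4, all 5 genes tested rose in footprints in branching and all 5 in fucose, galactose and sialic acid addition, as did 4 of 5 in Golgi mannose trimming and 3 of 4 in transport. What set replicate 4 apart was not tested.

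**Figure D2:**
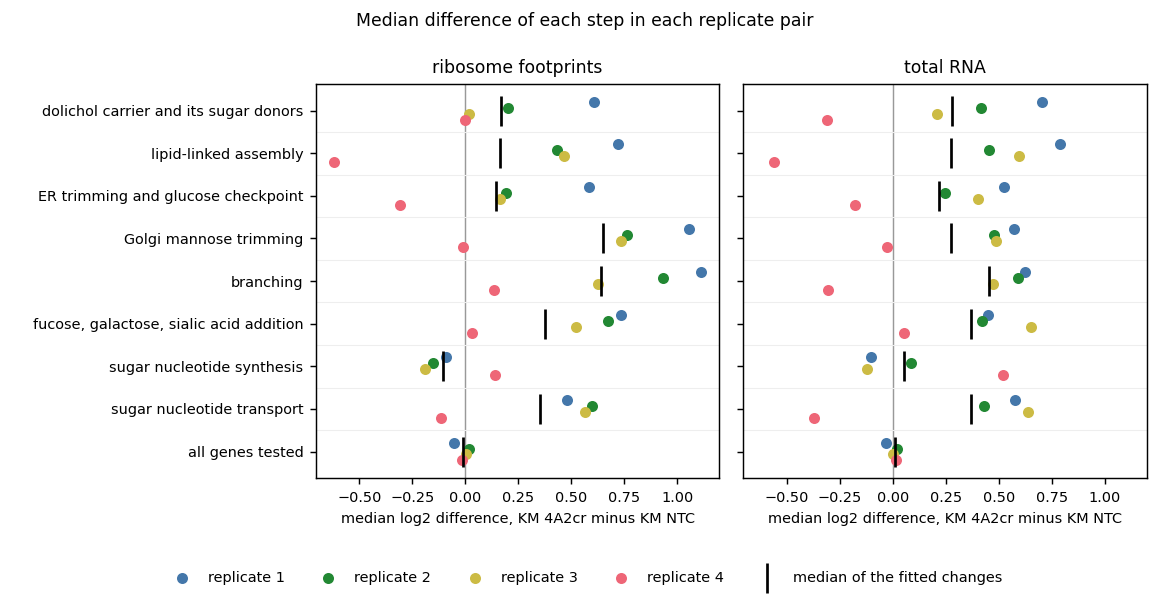
Median log2 difference (KM 4A2cr minus KM NTC) of the genes of each step in each replicate pair, for footprints (left) and total RNA (right). The black bar is the median of the fitted log2 fold changes. Replicate 4 (red) is lowest in 7 of 8 steps in both panels and highest in sugar nucleotide synthesis, while the medians of all genes sit near 0.

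Upstream sequence is shown for *Alg12*, which holds the only match among these genes to the ER stress response element, and for the 3 genes with a single annotated start whose footprints rose most. RefSeq (GRCm38.p6) gave the 250 bases before the start for 47 of the 56 genes. Capitals mark that element in *Alg12* and the CCAAT letters, on either strand, in all 4 windows.
Alg12: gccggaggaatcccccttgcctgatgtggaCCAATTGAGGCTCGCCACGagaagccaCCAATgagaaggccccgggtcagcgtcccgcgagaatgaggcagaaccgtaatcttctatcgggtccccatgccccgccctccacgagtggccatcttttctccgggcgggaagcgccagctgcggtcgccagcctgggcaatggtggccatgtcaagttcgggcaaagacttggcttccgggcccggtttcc
Man1a: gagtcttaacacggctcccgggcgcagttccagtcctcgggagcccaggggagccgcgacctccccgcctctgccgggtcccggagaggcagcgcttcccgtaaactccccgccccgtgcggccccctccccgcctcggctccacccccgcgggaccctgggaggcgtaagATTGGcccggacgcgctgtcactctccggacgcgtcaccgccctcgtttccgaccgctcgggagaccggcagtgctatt
Mgat2: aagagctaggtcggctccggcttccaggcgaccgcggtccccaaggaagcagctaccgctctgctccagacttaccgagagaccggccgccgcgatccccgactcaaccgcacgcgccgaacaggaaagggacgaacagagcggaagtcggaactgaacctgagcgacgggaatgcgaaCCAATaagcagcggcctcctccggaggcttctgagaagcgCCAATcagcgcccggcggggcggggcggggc
Slc35a3: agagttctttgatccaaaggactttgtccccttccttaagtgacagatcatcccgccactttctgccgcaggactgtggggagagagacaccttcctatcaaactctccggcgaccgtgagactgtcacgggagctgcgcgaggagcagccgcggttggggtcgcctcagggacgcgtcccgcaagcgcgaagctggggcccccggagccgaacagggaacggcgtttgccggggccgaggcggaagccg
The windows lie at chr15:88819319-88819568 (minus strand), chr10:54075738-54075987 (minus strand), chr12:69183908-69184157 (plus strand) and chr3:116712281-116712530 (minus strand). In *Alg12*, the match to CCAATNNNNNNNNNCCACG began 220 bases before the start and a separate CCAAT began at 193 bases. *Mgat2* held CCAAT at 71 and 31 bases before its start, *Man1a* held it on the other strand at 79 bases, and *Slc35a3* held none. 9 motifs were searched on both strands after the expression results were known. The 47 genes had 57 windows. The stress response element was in 1 of these 57 and in 0.113% of all 32851 windows. CCAAT was in 20 of the 57, from 18 genes, and in 33.8% of all windows. The other motifs were in as many windows as genes. They were TGACGTGG (0 genes, 0.563% of windows), CACGTG (4 genes, 6.02%), TGACGTCA (1 gene, 1.55%), TCACGTGA (2 genes, 0.785%), the ERSE-II element (0 genes, 0.0304%), GACGTG (4 genes, 5.2%), and TGATGCAA or TGATGAAA (0 genes, 1.67%). CCAAT lies within the stress response element, GACGTG within TGACGTGG and CACGTG within TCACGTGA, so these counts overlap. A match describes these letters and not a bound factor.

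No gene for dolichol and its sugar donors passed the test in either measure, and the 8 had median log2 fold changes of 0.17 in footprints and 0.28 in total RNA. Without replicate 4, *Srd5a3*, *Alg5*, *Dolk* and *Dpm3*, 4 of 8, rose in footprints and 6 of 8 rose in total RNA, with medians of 0.32 and 0.43. *Srd5a3*, the reductase that finishes dolichol, came nearest. Its footprints were 30.3, 24.0, 47.1 and 29.0 CPM in KM NTC replicates 1 to 4 and 51.1, 37.4, 59.6 and 29.9 CPM in KM 4A2cr, with a log2 fold change of 0.46 (SE 0.15, adjusted p = 0.112). It was higher in 4 of 4 pairs, by 0.05 in replicate 4. *Dolk*, the kinase that makes dolichol phosphate, had a log2 fold change of -0.03 that hid opposite pairs, with differences of 0.77, 0.14, 0.18 and -1.76. Its footprints in replicate 4 were 32.5 CPM in KM NTC and 9.42 CPM in KM 4A2cr. The subunits of dolichol phosphate mannose synthase differed in sign, with 0.00 for *Dpm1*, -0.43 for *Dpm2* (adjusted p = 0.176) and 0.38 for *Dpm3* (adjusted p = 0.185).

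In lipid-linked oligosaccharide assembly, *Alg12* and *Alg10b* rose in footprints, 2 of 11 genes tested, with a median of 0.16 over the step. ALG12 adds a mannose and ALG10B the last glucose of the precursor. *Alg12* footprints were 9.05, 9.63, 19.4 and 16.6 CPM in KM NTC and 17.6, 16.0, 36.1 and 18.6 CPM in KM 4A2cr, and its total RNA was 11.2, 8.09, 15.0 and 18.97 CPM against 12.9, 17.4, 31.4 and 23.0. The lines overlapped in level because experiments differed, yet each pair was higher in KM 4A2cr. The log2 fold changes were 0.71 (SE 0.16, adjusted p = 0.0472) in footprints and 0.68 (SE 0.19, adjusted p = 0.0818) in total RNA. *Alg10b* rose by 0.68 in footprints (SE 0.16, adjusted p = 0.0478), and its total RNA differed by 0.54 (adjusted p = 0.189). Without replicate 4, *Alg10b* rose by 0.80 in total RNA (adjusted p = 3.45e-06).

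The step medians ranged most between experiments here, among the 8 steps. The median footprint difference of the 11 genes was 0.72, 0.43, 0.47 and -0.62 in pairs 1 to 4, and 9 of 11 lay below 0 in replicate 4. *Dpagt1*, which adds the first sugar to dolichol, differed by 1.15, 0.74, 0.57 and -1.02. *Alg2*, a mannosyltransferase, differed by 0.55, 0.65, 0.47 and -1.43. *Alg8*, a glucosyltransferase, differed by 0.54, -0.05, -0.22 and -1.32. Without replicate 4, 8 of 11 genes rose in footprints and 11 of 12 in total RNA, with step medians of 0.46 and 0.55. *Alg8*, *Alg6* and *Alg14* were the genes tested whose footprints then did not pass, and *Alg13* was the one that did not pass in total RNA.

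ER trimming held the largest counts of the pathway, not scaled by length, and none of its genes passed in footprints. *Ganab* and *Prkcsh*, the catalytic and regulatory subunits of glucosidase II, and *Uggt1*, the folding sensor, together with *Man1a* of the next step took 56.6% of all footprint counts of the 56 genes. The 5 genes tested had log2 fold changes from 0.05 (*Mogs*) to 0.32 (*Prkcsh*). *Prkcsh* footprints were 837, 633, 1003 and 1423 CPM in KM NTC and 1259, 891, 1343 and 1218 CPM in KM 4A2cr (adjusted p = 0.257). Its total RNA was 97.3, 61.1, 80.2 and 129 CPM against 187, 94.5, 115 and 147, and rose by 0.57 (SE 0.14, adjusted p = 0.0605). KM 4A2cr was thus higher in 4 of 4 pairs in total RNA and in 3 of 4 in footprints. All 5 genes were above 0 in pairs 1 to 3 and below 0 in replicate 4 in footprints. Without replicate 4, *Ganab*, *Mogs* and *Prkcsh*, 3 of 6 genes then tested, rose in footprints and 4 of 6 rose in total RNA. Without replicate 1 the footprint median of the 5 genes was -0.02, against 0.14 with all replicates. *Uggt2*, the paralogue of *Uggt1*, had 0 to 17 footprints per library, and its total RNA of 0.49 ± 0.34 TPM (the authors' estimate of abundance per length, SD, n = 4) in KM NTC compared with 79.6 ± 8.0 TPM for *Uggt1*.

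Golgi mannose trimming rose through *Man1a* and *Man2a1*, with all 5 genes above 0 and a median of 0.65 in footprints. In total RNA the step median was 0.28, no higher than the 0.28 of the dolichol step and 0.27 of lipid-linked assembly. Without replicate 4 it was 0.50 in total RNA, beside 0.43 and 0.55 for those steps. MAN1A, MAN1A2 and MAN1C1 are Golgi mannosidases I, which act before the first branch, and MAN2A1 and MAN2A2 are mannosidases II, which act after it. *Man1a* footprints were 209, 97.8, 164 and 404 CPM in KM NTC and 436, 231, 385 and 527 CPM in KM 4A2cr. Its total RNA was 192, 122, 191 and 376 CPM against 382, 293, 428 and 369. In replicates 1 to 3 both measures about doubled, while in replicate 4 the footprint difference was 0.39 and the total RNA difference -0.03 on the log2 scale. The fitted log2 fold changes were 0.98 (SE 0.165, adjusted p = 0.0166) and 0.85 (SE 0.21, adjusted p = 0.0554). *Man2a1* rose by 0.57 in footprints (SE 0.16, adjusted p = 0.0804), with pairs of 0.78, 0.77, 0.74 and -0.01. Its total RNA did not pass with all replicates and rose by 0.48 without replicate 4 (adjusted p = 0.00048).

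The paralogues of this step did not all move alike in the values, though differences between paralogues were not tested. By total RNA, *Man1a* stood at 92.4 ± 31.1 TPM in KM NTC, *Man1a2* at 54.5 ± 19.8 TPM and *Man1c1* at 1.51 ± 0.53 TPM (SD, n = 4). *Man1a2* differed by 0.65 in footprints (SE 0.26, adjusted p = 0.172), with pairs of 1.06, 0.70, 1.22 and -0.54, and *Man1c1* by 0.81 (adjusted p = 0.118) on 12 to 36 footprints per library. *Man2a2*, at 13.0 ± 1.4 TPM beside 55.5 ± 8.0 TPM for *Man2a1*, differed by 0.10 in footprints (adjusted p = 0.746). Without replicate 4, *Man1a2* and *Man1c1* rose by 1.00 and 1.01 and *Man2a2* did not pass, at 0.16 (adjusted p = 0.495).

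Branching had the largest share of genes that rose, with *Mgat2*, *Mgat4a*, *Mgat4b* and *Mgat5* of 5 tested in footprints and a median of 0.64. In total RNA the step median was 0.45, and 0.56 without replicate 4. MGAT1 starts the first branch, MGAT2 the second, MGAT4A and MGAT4B add a branch on one arm and MGAT5 adds one on the other. *Mgat4b* had 28.1, 16.3, 32.3 and 52.9 CPM of footprints in KM NTC and 68.4, 36.7, 66.5 and 106 CPM in KM 4A2cr. The level about doubled or more in every pair, replicate 4 included, with log2 differences of 1.28, 1.16, 1.03 and 1.00. The log2 fold change was 1.13 (SE 0.12, adjusted p = 0.00351), and this was the gene of the 56 whose rise kept adjusted p under 0.1 whichever replicate was left out, at 1.07 or more. Its total RNA was 49.4, 34.7, 46.8 and 70.3 CPM against 67.0, 51.8, 64.9 and 131, a rise of 0.60 (SE 0.13, adjusted p = 0.0369). *Mgat4a*, its paralogue, stood at 66.5 ± 20.1 TPM in KM NTC beside 37.9 ± 5.3 TPM for *Mgat4b* (SD, n = 4). Its footprints rose by 0.54 (SE 0.16, adjusted p = 0.0881), and its total RNA differed by 0.42 (adjusted p = 0.226). Without replicate 4, *Mgat4a* rose by 0.63 in total RNA (adjusted p = 6.06e-05).

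*Mgat5* footprints were 60.6, 58.1, 97.9 and 84.1 CPM in KM NTC and 131, 91.4, 152 and 92.4 CPM in KM 4A2cr. Its total RNA was 145, 178, 234 and 211 CPM against 277, 310, 378 and 232. Both measures rose by 0.64 (SEs 0.16 and 0.15, adjusted p = 0.0641 and 0.0543), with the smallest differences, 0.13 and 0.14, in replicate 4. *Mgat2* rose by 0.98 in footprints (SE 0.18, adjusted p = 0.0218). Its total RNA did not pass with all replicates and rose by 0.75 without replicate 4 (adjusted p = 8.41e-06). Its footprint level varied among experiments more than between lines, from 35.4 to 197 CPM in KM NTC and from 69.7 to 432 CPM in KM 4A2cr. Within pairs its footprints differed by 1.13, 0.99, 1.41 and 0.30. *Mgat1* was at 0.15 (adjusted p = 0.632). *Mgat3*, which adds the bisecting residue, had 3 to 15 footprints per library and a total RNA log2 fold change of -0.15 (adjusted p = 0.813).

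Of the enzymes that finish the glycan, *Fut8* and *B4galt1* rose in footprints, 2 of 5 tested, with a median of 0.38. In total RNA the step median was 0.37, and 0.45 without replicate 4. FUT8 adds the core fucose, and B4GALT1 to B4GALT3 add galactose to the branches. *Fut8* footprints were 65.3, 54.8, 104 and 92.7 CPM in KM NTC and 188, 130, 268 and 143 CPM in KM 4A2cr. Its total RNA was 144, 172, 249 and 235 CPM against 320, 342, 564 and 318. In footprints and in total RNA, every KM 4A2cr library lay above every KM NTC library, which held for 0.981% and 0.938% of genes tested. *Fut8* was the 1 gene of the 56 where this held, a count near those shares. The log2 fold changes were 1.20 (SE 0.16, adjusted p = 0.00846) and 0.94 (SE 0.16, adjusted p = 0.012), and replicate 4 had the smallest differences, 0.63 and 0.43.

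*B4galt1* rose by 0.61 in footprints (SE 0.15, adjusted p = 0.0543), and its total RNA differed by 0.42 (adjusted p = 0.149). Without replicate 4, *B4galt1* rose by 0.56 in total RNA (adjusted p = 0.000169). It was the more abundant paralogue by total RNA, at 80.4 ± 18.3 TPM in KM NTC beside 45.1 ± 8.0 TPM for *B4galt3* and 1.82 ± 0.63 TPM for *B4galt2* (SD, n = 4). *B4galt3* differed by 0.27 in footprints (adjusted p = 0.252), and *B4galt2* had 0 to 5 footprints per library. The sialyltransferases *St3gal4* and *St6gal1* differed by 0.38 and 0.20 (adjusted p = 0.456 and 0.638), each with 3 positive pairs and a difference of -0.85 or -0.80 in replicate 4. *St3gal4* footprints in KM NTC ranged from 15.0 to 128 CPM, with the highest value in replicate 4.

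**Figure D3:**
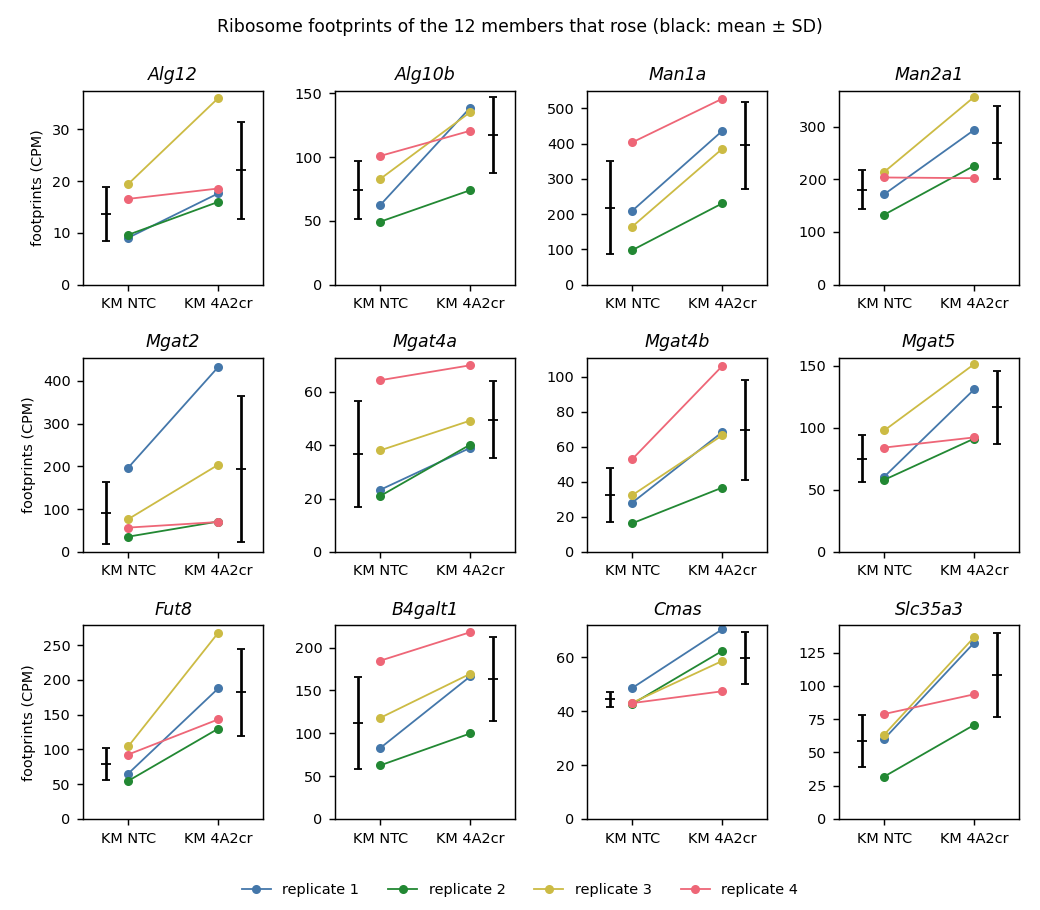
Footprints (CPM, linear axes from 0 in each panel) of the 12 genes that rose, with a line joining the KM NTC and KM 4A2cr libraries of each replicate and the mean ± SD of each line in black. All lines slope upwards except that of *Man2a1* in replicate 4 (-0.01 on the log2 scale). Replicate 4 is drawn in red.

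In sugar nucleotide synthesis 1 of 9 genes rose in footprints and the step median lay below 0, which it did in no other step. It was -0.11 in footprints and 0.05 in total RNA over 9 genes, and 4 of 9 lay above 0 in footprints. *Cmas*, which activates sialic acid, was the gene that passed. Its footprints were 48.6, 42.7, 43.1 and 43.0 CPM in KM NTC and 70.4, 62.4, 58.6 and 47.4 CPM in KM 4A2cr, so 3 KM 4A2cr libraries lay above all of KM NTC. The log2 fold change was 0.42 (SE 0.13, adjusted p = 0.0948), and total RNA differed by 0.31 (adjusted p = 0.205). Among earlier enzymes of sialic acid synthesis, *Gne*, the first, was at -0.43 (adjusted p = 0.12) and *Nans* at -0.19 (adjusted p = 0.484). *Nanp*, the phosphatase between *Nans* and *Cmas*, is not among the 56 genes and was added after its values were seen, and it was at 0.35 (adjusted p = 0.225) with 4 of 4 pairs higher. *Gne* footprints were lower in 4 of 4 pairs. Without replicate 4, *Cmas* rose by 0.51 while *Gne* and *Nans* fell by 0.39 and 0.32 (adjusted p = 0.00429, 0.0663 and 0.0593). In total RNA without replicate 4, *Nans* fell by 0.29 (adjusted p = 0.0699) and *Gne* was at -0.34 (adjusted p = 0.101). *Cmas* rose by 0.35 in that fit (adjusted p = 0.0147).

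The hexosamine genes, which make UDP-N-acetylglucosamine for the branches, did not pass in either measure. *Gfpt1*, the entry enzyme, was at 0.19 in footprints (adjusted p = 0.375) with 4 positive pairs, *Pgm3* at -0.11 and *Uap1* at 0.25. The salvage kinase *Nagk* was at 0.10. *Gmppa* and *Gmppb*, which regulate and make GDP-mannose, were at -0.41 and -0.33 in footprints (adjusted p = 0.191 and 0.348), on 10 to 82 and 11 to 138 counts per library. Their footprints were lower in 4 of 4 pairs, while their total RNA changes were 0.02 and 0.00. In footprints 4, 4 and 3 of 9 genes of this step lay above 0 in pairs 1 to 3, and 5 of 9 in replicate 4. *Pgm3* and *Uap1* were highest there, at 0.69 and 0.71, while *Nagk*, *Gne* and *Cmas* were lowest there, at -0.91, -0.62 and 0.14. In total RNA 8 of 9 genes of the step lay above 0 in replicate 4, against 3, 5 and 3 in the other pairs.

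Among sugar nucleotide transporters *Slc35a3*, the carrier for UDP-N-acetylglucosamine, rose in footprints, 1 of 4, with a step median of 0.35. Its footprints were 60.2, 31.9, 63.4 and 78.9 CPM in KM NTC and 132, 70.7, 137 and 93.7 CPM in KM 4A2cr. Pairs 1 to 3 more than doubled, with differences of 1.13, 1.14 and 1.10, and replicate 4 differed by 0.25. The log2 fold change was 0.92 (SE 0.17, adjusted p = 0.0228), and total RNA differed by 0.47 (adjusted p = 0.207). Without replicate 4, *Slc35a3* rose by 0.71 in total RNA (adjusted p = 1.12e-05). The GDP-fucose carrier *Slc35c1*, the CMP-sialic acid carrier *Slc35a1* and the UDP-galactose carrier *Slc35a2* were at 0.49, 0.10 and 0.22 in footprints (adjusted p = 0.15, 0.812 and 0.426).

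**Figure D4:**
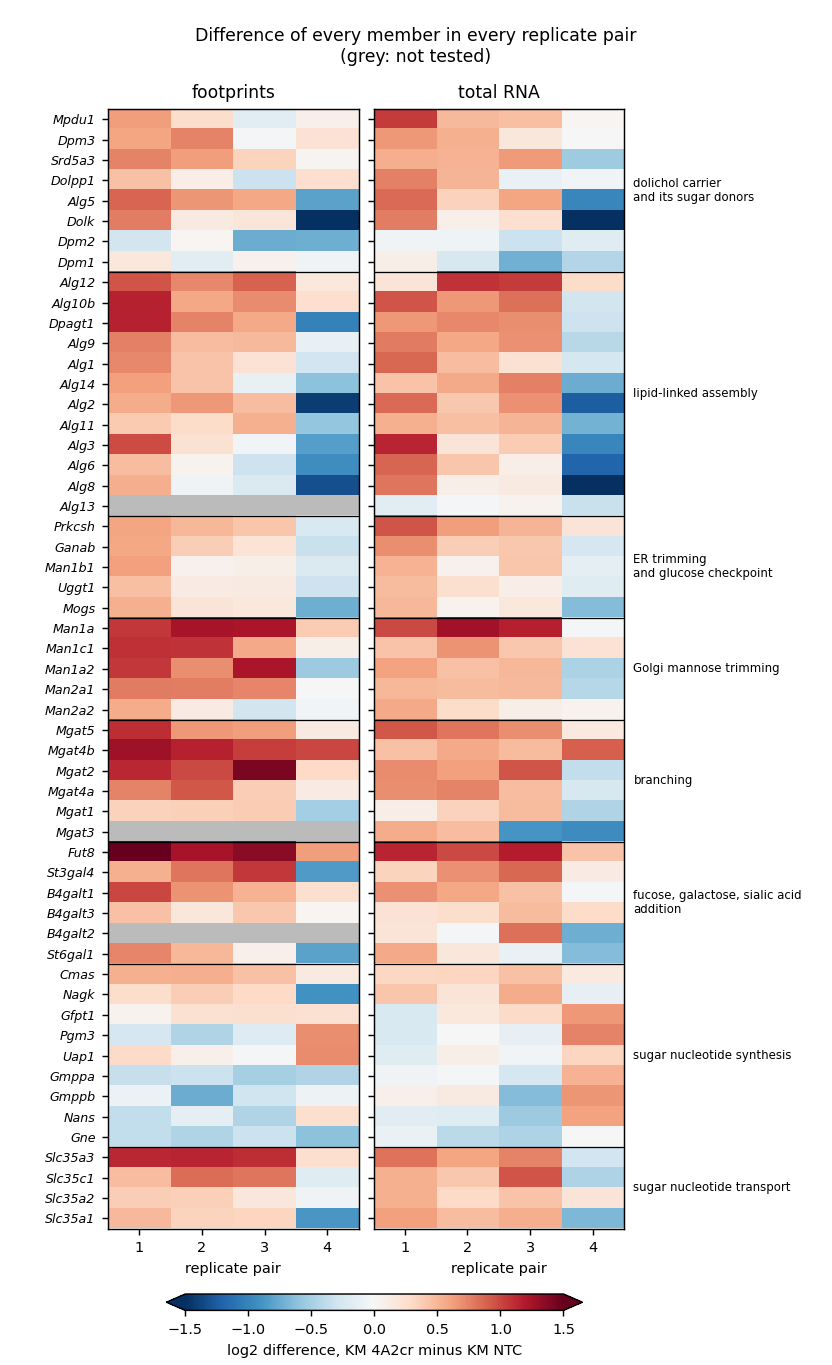
Log2 difference (KM 4A2cr minus KM NTC) of each gene in each replicate pair, in footprints and total RNA, grouped by step. Colours run from -1.5 (blue) to 1.5 (red) and grey marks genes not tested. The column of replicate 4 is blue through most of the lipid-linked and ER steps, while *Mgat4b* and *Fut8* are red in all 8 columns.

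Footprints and mRNA were compared directly by translational efficiency (TE), the footprint change beyond the total RNA change. 5 of 52 genes had higher TE in KM 4A2cr cells and 0 had lower TE, where 1.87% of 9989 genes were higher and 1.0% lower. They were *Mgat4b* at 0.53 (SE 0.12, adjusted p = 0.0369), *Mgat2* at 0.48 (SE 0.10, adjusted p = 0.02), *Slc35a3* at 0.44 (SE 0.10, adjusted p = 0.0296), *Man1a2* at 0.38 (SE 0.11, adjusted p = 0.09) and *Man2a1* at 0.31 (SE 0.09, adjusted p = 0.0952). The TE difference was positive in 4 of 4 pairs for each of them but *Man1a2*, which was at -0.07 in replicate 4. For *Mgat2* and *Slc35a3* it was 0.67 and 0.54 in replicate 4, where footprints differed by 0.30 and 0.25 and total RNA by -0.37 and -0.29. The median TE change of the 52 genes was -0.02 with 24 above 0, beside -0.02 over all genes. Without replicate 1, 2 or 3, 0 genes passed edgeR's TE test, with 6, 10 and 10 at an unadjusted p under 0.05. Over all genes 10 of 9936, 16 of 9947 and 13 of 10039 then had higher TE, and 5, 3 and 3 had lower TE.

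By step, the median TE change was 0.31 for Golgi mannose trimming, 0.13 for branching and 0.17 for fucose, galactose and sialic acid addition. It was 0.04 for the dolichol step, -0.06 for lipid-linked assembly, -0.07 for ER trimming, -0.15 for sugar nucleotide synthesis and -0.02 for transport. In replicate 4 this order did not hold. The pair medians there were -0.07 for Golgi mannose trimming, 0.11 for branching and -0.15 for addition. Lipid-linked assembly was at 0.13 and the dolichol step at 0.23 in that pair. Branching was at -0.06 in replicate 3. Without replicate 4 the medians were 0.29, 0.07 and 0.20 for trimming, branching and addition, and -0.10 for lipid-linked assembly. *Fut8* had a TE change of 0.25 (adjusted p = 0.189), and *Man1a*, *Alg12* and *Mgat5* had 0.13, 0.00 and -0.01. *Prkcsh*, whose total RNA rose, had -0.25 (adjusted p = 0.221), and *Alg6* and *Mpdu1* had -0.30 and -0.35 (adjusted p = 0.197 and 0.223). Without replicate 4, 6 of 53 genes had higher TE and 2 (*Alg6* and *Mpdu1*) lower TE, against 5.04% and 2.9% of all genes. *Fut8* joined the 5 above in that fit.

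**Figure D5:**
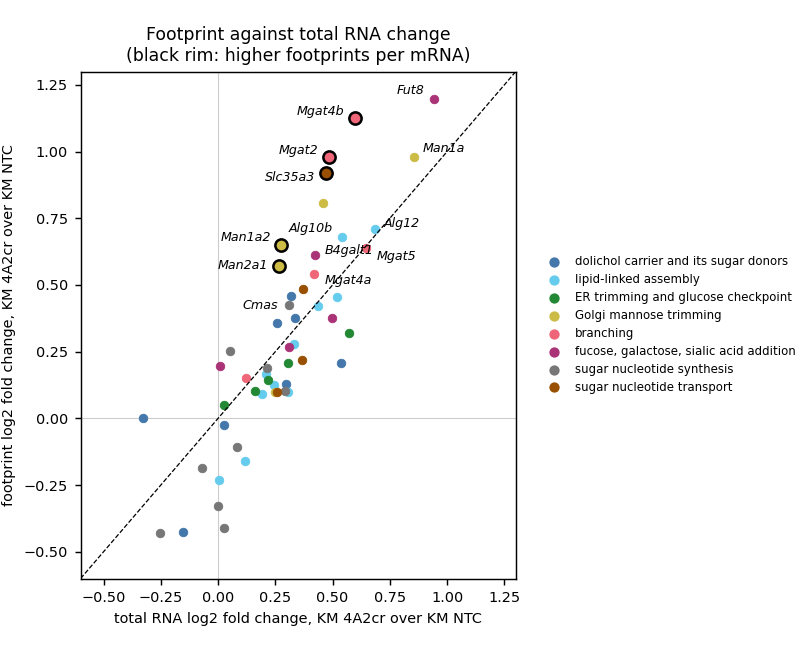
Footprint against total RNA log2 fold change (KM 4A2cr over KM NTC) of the 52 genes tested in both, coloured by step, with equal change on the dashed line. Names mark genes that rose in footprints or in TE, and black rims mark the 5 with higher TE, which lie above the line.

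Neighbouring gene groups gave a mixed picture in footprints, where 6.6% of all 10291 genes tested rose and 3.72% fell. Of 11 subunits of the oligosaccharyltransferase, which moves the finished glycan to the protein, 10 lay above 0 and *Krtcap2* rose (0.56, adjusted p = 0.0584), with a median of 0.26. Of 41 other N-glycan and sugar supply genes tested, 5 rose and 2 fell, with a median of 0.12. They included *Edem1*, a mannosidase-like protein of ER-associated degradation (0.82, adjusted p = 0.0102), the glycoprotein chaperone *Calr* (0.59, adjusted p = 0.0403) and galactokinase *Galk1* (-0.78, adjusted p = 0.0224). Of 13 reporter genes of ER stress tested, 11 lay above 0, 4 rose and 0 fell, with a median of 0.40. *Dnajb9*, *Creld2* and *Dnajc3*, ER chaperones or their helpers, rose by 0.83, 0.84 and 0.84 in footprints (adjusted p = 0.0102, 0.011 and 0.0111). *Sdf2l1* and *Atf4* lay below 0, at -0.07 and -0.25. In total RNA 4 of 14 reporters rose, against 4.35% of all genes. The median difference of the reporters in footprints was 0.65, 0.42, 0.33 and 0.39 in pairs 1 to 4, so replicate 4 lay within the range of the others. Their part in the rise of the N-glycan genes was not tested.

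6 of the 56 genes (*Dolk*, *Dolpp1*, *Dpm1*, *Dpm2*, *Man1b1* and *Slc35c1*) lie on chromosome 2 in GRCm38. Genes of that chromosome were lower in KM 4A2cr cells, with a median footprint change of -0.21 over 833 genes, of which 85 fell and 22 rose. The 6 genes had a median of 0.07 in footprints and none passed the test. None of them passed in total RNA either, so leaving them out could not change the counts of 12 and 6 genes that rose. Of the 8 dolichol genes 4 lie there, and the median of the other 4 was 0.367 in footprints and 0.327 in total RNA, against 0.17 and 0.28 for all 8.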

How the data were processed

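Each line gave 4 footprint libraries and 4 libraries of cytoplasmic total RNA. A further allele that both lines carry is not reported here. For footprints the authors deposited whole-number counts over the coding sequence of 1 transcript per gene, after trimming with cutadapt 1.18, alignment with BBmap and removal of duplicates with UMI-tools 1.0.1. For total RNA the authors deposited RSEM 1.3.3 estimated (expected) counts and TPM per isoform, after alignment with Bowtie2 2.3.5.1. Expected counts were summed per gene and rounded. Per isoform they were nearly all whole (27 to 58 values per library were not), and isoforms of a gene often had equal shares, so no isoform is discussed. Where a library did not list a footprint transcript, its count was set to 0.

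Genes were filtered with filterByExpr by line, normalised by TMM within each kind of library and tested with edgeR 4.0.16 (glmQLFit, glmQLFTest, R 4.3.3) with line and replicate as terms, over all genes, with Benjamini-Hochberg adjustment and a threshold of 0.1. Standard errors are the size of the log2 fold change divided by the square root of F. TE was the interaction of line and kind of library over 16 libraries, with lysate and the replicate of each kind as further terms. Pair differences are of log2 CPM with a prior count of 2. The fits were tested on simulated data first. Replicate numbers mark experiments on different days per the labels, and deviations from line means correlated within pairs at 0.575 to 0.782 in footprints and 0.611 to 0.756 in total RNA. Depth sets the precision, and folds of genes with few counts are imprecise.

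The genes, their steps, the other lists and the motifs were chosen with earlier results of these data known. Every gene of the 56 that passed a test with all replicates is named, but not every gene that passed only with a replicate left out. Values per library are given for genes that passed in footprints and total RNA, and otherwise for the gene with the smallest footprint p of its step, and paralogues are set side by side. From each other list of pathway genes, at most 3 that passed in footprints are named, smallest p first. *Nanp*, *Sdf2l1*, *Atf4* and the cell type markers are named besides. Alternatives were no replicate block, DESeq2 1.42.0, 3 other scalings, 2 other filters, a threshold of 0.05, the footprint isoform alone and each replicate left out. Their effect is given at the end.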

Additional observations from a re-analysis of the deposited data

Results flagged for a closer look

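Of 56 groups of 4 libraries examined (14 genes, 2 lines and 2 kinds of library), 4 had 1 library far from the other 3, and chance alone flags about 1 group in 20. *Alg12* footprints in KM 4A2cr replicate 3 were 36.05 CPM, against 15.99 to 18.58 in the other KM 4A2cr libraries. *Cmas* footprints in KM NTC replicate 1 were 48.61 CPM, against 42.69 to 43.14. *Cmas* total RNA in KM 4A2cr replicate 4 was 50.94 CPM, against 75.2 to 78.33. *Fut8* total RNA in KM 4A2cr replicate 3 was 564.1 CPM, against 317.8 to 342.4. Replicate 3 was also the highest KM NTC library for *Alg12* footprints and for *Fut8* total RNA.

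Footprint and total RNA changes differed by the TE test for 5 genes, with a log2 difference of 0.5293 for *Mgat4b*, 0.4768 for *Mgat2*, 0.4408 for *Slc35a3*, 0.3818 for *Man1a2* and 0.3075 for *Man2a1*. The footprint change was the larger in each.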

How the results depend on the processing

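The replicate block decided the number of genes that passed. Without the replicate block 0 genes rose in footprints, total RNA or TE by edgeR, with 6, 3 and 0 at an unadjusted p under 0.05. Over all genes, 0 of 10291, 0 of 10880 and 0 of 9989 then rose or fell, so the 0 is not particular to these genes. Leaving out 1 replicate gave 1 to 33 genes higher and 0 to 2 lower in footprints, 0 to 39 higher and 0 to 1 lower in total RNA, and 0 to 6 higher and 0 to 2 lower in TE. The highest count was without replicate 4 in each case, as it was over all genes. The median footprint change ranged from 0.2585 to 0.7363 for fucose, galactose and sialic acid addition and from -0.3123 to -0.0286 for sugar nucleotide synthesis, with 0.7363 and -0.3123 both without replicate 4. It ranged from -0.0155 to 0.3073 for ER trimming, where the sign turned without replicate 1, from 0.0346 to 0.3203 for the dolichol step, from 0.0841 to 0.4606 for lipid-linked assembly, from 0.5013 to 1.0049 for Golgi mannose trimming, from 0.4771 to 0.8011 for branching and from 0.2728 to 0.5416 for transport. In total RNA the median of sugar nucleotide synthesis ranged from -0.0826, without replicate 4, to 0.1548. At a threshold of 0.05, 7 genes rose in footprints, 2 in total RNA and 3 in TE. Scaling by library size alone moved the median of all genes to -0.14 in footprints and -0.15 in total RNA, and gave 10 genes higher and 3 lower in footprints and 3 higher in total RNA. With no filter on low counts 13 genes rose in total RNA. Without the genes on chromosome 2 the footprint median was 0.367 for the dolichol step and 0.218 for transport. The cause was not tested for any of these.

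DESeq2 gave 12 genes higher in footprints, 6 in total RNA and 4 in TE. No gene that passed changed direction under any alternative run. *Mgat4b* kept its footprint call in 11 of 12 alternatives and *Fut8* in 10 of 12, whereas *Cmas* kept it in 3 of 12. With 4 experiments, of which 1 differs, genes with few footprints could not be resolved.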
